A study of Bos taurus with 16 samples.

Results

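The cytosolic ribosomal protein genes encode the proteins of the 60S subunit (named RPL) and the 40S subunit (named RPS) of the ribosome. They were taken from the 3 deposited expression tables by gene name: RPL or RPS followed by a number, with or without A, X, L or L1, together with RPLP0, RPLP1, RPLP2 and RPSA. The kinases of the RPS6K family are not taken by this rule. The rule found 82 gene models, 50 RPL and 32 RPS, among 38959 in the first blastocyst table and the same 82 among 37429 in the second. In the table of bovine embryonic stem cells (bESCs) it found 81 models with 80 names, 48 RPL and 33 RPS, among 28303. Tests covered the genes whose normalized counts averaged 10 or more, which held for 78 members in each blastocyst table and 80 in the bESC table.

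Each ribosome holds 1 copy of nearly every one of these proteins, which are assembled with ribosomal RNA in the nucleolus. Their mRNAs are short and abundant and begin with a pyrimidine tract at the 5′ end, the TOP motif, through which mTORC1 and the RNA-binding protein LARP1 control their translation. In the mammalian embryo ribosome synthesis restarts with activation of the embryonic genome and the blastocyst translates mainly its own mRNAs.

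The study asked how LY2955303, an inhibitor of retinoic acid receptor gamma (RARγ), changes the transcriptome of bovine embryos and bESCs. All samples carried the label WT, and all embryos were made by in vitro fertilization of slaughterhouse oocytes. The DMSO group (3 libraries) received the solvent alone. The LY10 group (3 libraries) received LY2955303 at 10 μM, starting at the 2-cell stage and until the blastocyst was collected. The culture medium of both held LIF, FGF2 and IGF1. In the second table, cell2_LY and cell16_LY (2 libraries each) received the inhibitor from the 2-cell and the 16-cell stage and LY_DMSO (2 libraries) served both as control. Each blastocyst library was made from 1 whole embryo, so trophectoderm and inner cell mass are mixed. The bESC_tifx libraries (2) were stem cells in TiFX medium, which holds inhibitors of MEK, WNT, DOT1L, FGF receptors and GSK3 together with forskolin and LIF, and bESC_LY (2) received the inhibitor in addition. The labels name the control only by its medium, while the paper describes a DMSO control. The stem cells grew on mouse feeder fibroblasts, whose RNA was not separated here. The labels do not say whether libraries came from separate cultures or fertilizations, so p-values measure the spread between these libraries.

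Reads on genes ranged from 7905768 to 17343140 in the 12 blastocysts and from 29055323 to 31230432 in the 4 bESC libraries. Trophectoderm markers fitted the blastocyst label, with 9 to 11 of 12 at a mean FPKM (reads scaled to gene length and library size) of at least 1 in every blastocyst group, while 4 of 12 reached it in the bESCs, where IFNT2 and PAG2 were at 0. Epiblast markers reached it for 8 of 9 in every blastocyst group and 6 of 9 in the bESCs. Some marker sums differed between groups without overlap. The 10 fibroblast markers summed to 6.10 to 11.8 FPKM in LY10, with 2 at a mean of at least 1, against 26.7 to 91.5 in DMSO, with 5. The 9 epiblast markers summed to 647 to 831 FPKM in cell2_LY and 739 to 883 in cell16_LY against 1190 to 1229 in LY_DMSO, with FGF4 at 0 in all 3 groups, and the 12 trophectoderm markers to 5653 to 8207 and 5764 to 6954 against 4435 to 5394. Their part in the results on ribosomal protein genes was not tested, and in bulk libraries fewer cells of a type and less RNA per cell cannot be told apart.

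Ribosomal protein genes were among the most abundant mRNAs of every library. Their share of all gene reads was 5.01, 4.97 and 6.0% in DMSO and 5.10, 4.68 and 4.98% in LY10. DMSO replicate 3 was the highest and the groups overlapped. In the second table the share was 4.52 and 3.75% in LY_DMSO, 6.24 and 5.19% in cell2_LY and 4.09 and 4.82% in cell16_LY. Both cell2_LY libraries lay above both LY_DMSO and both cell16_LY libraries, and cell16_LY overlapped LY_DMSO. In the bESCs the share was 5.83 and 5.56% in bESC_tifx and 5.98 and 5.41% in bESC_LY, so the groups overlapped.

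The balance between subunits lay on opposite sides of the controls in the 2 blastocyst experiments, whose controls also differed from each other. Reads on RPS genes divided by reads on RPL genes gave 0.896, 0.926 and 0.868 in DMSO and 0.752, 0.844 and 0.793 in LY10, with every LY10 library below every DMSO library. The ratio was 0.784 and 0.769 in LY_DMSO, 0.844 and 0.830 in cell2_LY and 0.828 and 0.812 in cell16_LY, with all 4 treated libraries above both controls. Every DMSO library lay above every other blastocyst library in this ratio. All libraries of the second table, the LY_DMSO controls included, lay within the range of LY10. The tested RPS genes were slightly shorter than the RPL genes, with a median counted length of 680 against 710 bases. The ratio was computed after other results were known and no test was made.

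**Figure D1:**
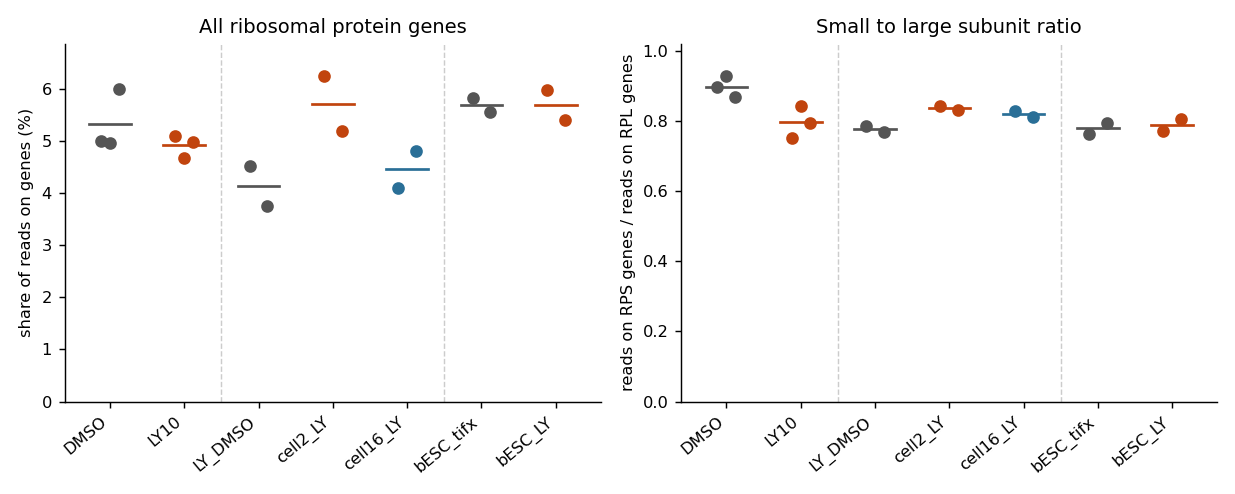
Share of reads on genes that fell on ribosomal protein genes (left, percent) and the ratio of reads on RPS to reads on RPL genes (right), 1 point per library and a line at each group's mean, with dashed lines between the 3 tables. The share of DMSO spans 4.97 to 6.0% and overlaps LY10, while both cell2_LY libraries (6.24 and 5.19%) lie above LY_DMSO.

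Levels between genes were compared per length, as FPKM. In the first table the tested members had a median FPKM of 782, against 3.88 for all tested genes, and 73 of them were among the 500 highest genes. The 3 highest were RPS27A, which encodes ubiquitin fused to a small subunit protein, RPS25 and RPS20. RPS27A stood at 2819, 3605 and 4040 FPKM in DMSO and 2041, 1957 and 2288 in LY10. The lowest tested members were RPS9 with a mean of 98 FPKM, RPL36 with 111 and RPL26L1 with 178. The model of RPS9 overlaps LOC107131323 and that of RPL36, counted over 1465 bases, overlaps LONP1. In the bESCs, with RPL36 counted over 569 bases, RPS9, RPL36 and RPL26L1 had means of 665, 328 and 68 FPKM. The part of the gene models in these levels was not tested. In the second table the median was 721 FPKM, RPS25, RPS3 and RPS27A were the highest and RPL26L1, RPS9 and RPL36 the lowest of the tested members. In the bESC table the median was 754 FPKM and 48 members were among the 100 highest genes, led by RPLP0, RPL7A and RPS10.

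Within a group, these genes varied less between libraries than most. The median standard deviation of a member between libraries of a group was 0.25, 0.19 and 0.13 log2 units in the first, second and bESC tables. It was 0.51, 0.42 and 0.27 over all tested genes and 0.32, 0.32 and 0.20 over the other genes with a mean FPKM of at least 100.

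Some members could not be followed in every table. RPS23 and RPL37 had 0 reads in all 12 blastocysts, which allows at most 3 reads per library, while in the bESCs RPS23 had 991, 1023, 1038 and 959 FPKM and RPL37 had 1141, 901, 1221 and 886. The blastocyst tables follow RefSeq gene models and the bESC table Ensembl models. Of the other models in the first table, 14 described as the RPS23 protein held 7772 reads, and 4 described as RPL37 held 280. The RefSeq model of RPS23 overlaps ATG10 and that of RPL37 overlaps 2 other models, and the part of this in the zeros was not tested. RPL41 and RPL39L were not analysed here, and neither were RPL22 and RPL31 in the bESC table.

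Ribosomal protein genes have many retrocopies, and reads can be divided between a gene and its copies. Models described as the same protein numbered 716 in the first table, 714 in the second and 233 in the bESC table and held 6.91, 6.81 and 3.48% of the reads on members and copies. For RPL36A the copies held more reads than the gene in the first table (53043 against 21523), mostly on RPL36AL, which is expressed in its own right. For RPS4X, the X-linked gene of a small subunit protein, copies held 27.3% in the first table, nearly all on RPS4Y1. For RPL12 they held 28.7% in the first table and 76.8% in the bESC table. In the first table they also held 29.7% for RPL23A and 23.6% for RPL11. The values of these genes are uncertain, and smaller shares touch other members. Of the members, 37 in each blastocyst table and 33 in the bESC table overlapped another gene model, mostly small nucleolar RNA genes inside their introns in the bESC table.

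LY10 blastocysts were compared with DMSO blastocysts first. At the threshold of the study, which asks for an unadjusted p below 0.05 together with a log2 fold change beyond 1 in either direction, 0 members were higher and 3 were lower in LY10, RPS27L, RPS29 and RPL38. Among all 14249 tested genes 6.2% were higher and 8.51% lower at this threshold. At an unadjusted p under 0.05 alone, 3 members were higher, against 10.8% of all genes, and 20 were lower (25.6% of the 78), against 12.2%. These counts depended on single libraries: 8 were lower without LY10 replicate 2, 12 without DMSO replicate 3 and 14 to 18 without any other one, and 0 were higher without DMSO replicate 1, DMSO replicate 2 or LY10 replicate 1 and 11 without DMSO replicate 3. With Benjamini-Hochberg adjustment over all genes, 0 members passed 0.05 in limma, where the lowest adjusted p of a member was 0.0783 and 0.014% of all genes passed. With array quality weights 6 members passed it, RPS27L, RPS29, RPL7A, RPL37A, RPL3 and RPL38. With these weights 9 members were higher and 16 lower at an unadjusted p under 0.05, and the median was -0.06. The shares over all genes with these weights are not given here. Without DMSO replicate 3 the adjustment was passed by 12 members, those 6 among them. The shares over all genes without single libraries are not given here either. With voom weights 23 members had an unadjusted p under 0.05 and 0 an adjusted one. The median log2 fold change of the 78 members was -0.19, against -0.05 over all tested genes. By sign alone 29 members were higher and 49 lower, against 47.4 and 52.6% of all genes. The groups did not overlap for 24 lower members (30.8%, against 14.4% of all genes) and for 3 higher ones (against 13.8%). The median was -0.30 over the 31 RPS genes and -0.09 over the 47 RPL genes.

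RPS27L showed the widest difference. It is a paralog of the zinc-finger protein gene RPS27 and a known target of p53, and lies at chr10:46889233-46892623 of ARS-UCD2.0. It stood at 741, 1479 and 866 FPKM in DMSO and 393, 266 and 249 in LY10. Every LY10 library was below every DMSO library, and DMSO replicate 2 was the highest. The log2 fold change was -1.73 ± 0.31 (SE) with an unadjusted p of 0.000355 and an adjusted p of 0.0783 in limma. Copies held 5.51% of the reads on RPS27L and its copies. Its parent RPS27 was 579, 453 and 662 FPKM in DMSO and 380, 317 and 423 in LY10, also without overlap, with a log2 fold change of -0.59 ± 0.23.

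RPS29 and RPL38 were the other members past the threshold. RPS29 (chr10:42627498-42629350), a zinc-binding protein of the 40S head and the shortest tested member at 295 counted bases, stood at 2339, 2274 and 2445 FPKM in DMSO and 1218, 897 and 1263 in LY10. The DMSO libraries lay close together and none overlapped LY10, and the log2 fold change was -1.08 ± 0.21 (adjusted p = 0.0783 in limma). RPL38 (chr19:57192440-57196473), a 60S protein known for its role in translating Hox mRNAs in the mouse, stood at 616, 787 and 439 FPKM in DMSO and 316, 188 and 372 in LY10. The groups did not overlap but DMSO replicate 3 came near LY10 replicate 3, and the log2 fold change was -1.09 ± 0.32 (adjusted p = 0.107 in limma). Without LY10 replicate 2 the change of RPS29 was -0.92 and that of RPL38 -0.80, so that only RPS27L of these 3 passed the threshold, and without DMSO replicate 2 that of RPL38 was -0.89.

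Further members were lower with smaller changes. RPL37A, a zinc-binding 60S protein, stood at 998, 1151 and 1227 FPKM in DMSO and 612, 601 and 654 in LY10. The LY10 libraries were nearly equal and far below DMSO, with a log2 fold change of -0.85 ± 0.19 (adjusted p = 0.0786 in limma). RPS27A, given by library above, did not overlap either and changed by -0.72 ± 0.22 (unadjusted p = 0.00914). The other members lower at an unadjusted p under 0.05 were RPS12, RPS21, RPL27A, RPL22, RPL35A, RPL23, RPL26, RPL39, RPL26L1, RPS27, RPL34, RPS25, RPS26, RPS24 and RPL27, with log2 fold changes from -0.87 for RPL39 to -0.49 for RPS26. Their groups did not overlap, except for RPL39.

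The members that were higher at an unadjusted p under 0.05 were RPL7A, RPL3 and RPL15, all of the 60S subunit. RPL7A stood at 223, 218 and 445 FPKM in DMSO and 568, 489 and 475 in LY10. RPL3, a protein close to the peptidyl transferase centre, stood at 421, 432 and 717 FPKM in DMSO and 902, 771 and 744 in LY10. RPL15 stood at 146, 137 and 255 FPKM in DMSO and 315, 293 and 230 in LY10. In all 3 genes DMSO replicate 3 lay far above the other DMSO libraries and close to LY10, and for RPL15 it overlapped LY10. The log2 fold changes were 0.87 ± 0.30, 0.66 ± 0.25 and 0.68 ± 0.28. None of the 3 kept an unadjusted p under 0.05 without DMSO replicate 1, without DMSO replicate 2 or without LY10 replicate 1. Without DMSO replicate 3 they were 1.21, 0.91 and 0.97, with adjusted p of 0.0149, 0.0267 and 0.0287 in limma. Without that library 3 members (RPLP0, RPL7A and RPL8) were higher and 5 (RPS29, RPS27L, RPL39, RPL26L1 and RPL38) lower at the threshold of the study. Then 12 members passed the adjustment, and the median over members was -0.04. Calls were frequent outside the family too. Of other genes averaging at least 100 FPKM, 3 of 114 under 600 bases and 213 of 859 longer ones were higher at an unadjusted p under 0.05. In the same 2 sets 66 and 193 were lower.

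**Figure D2:**
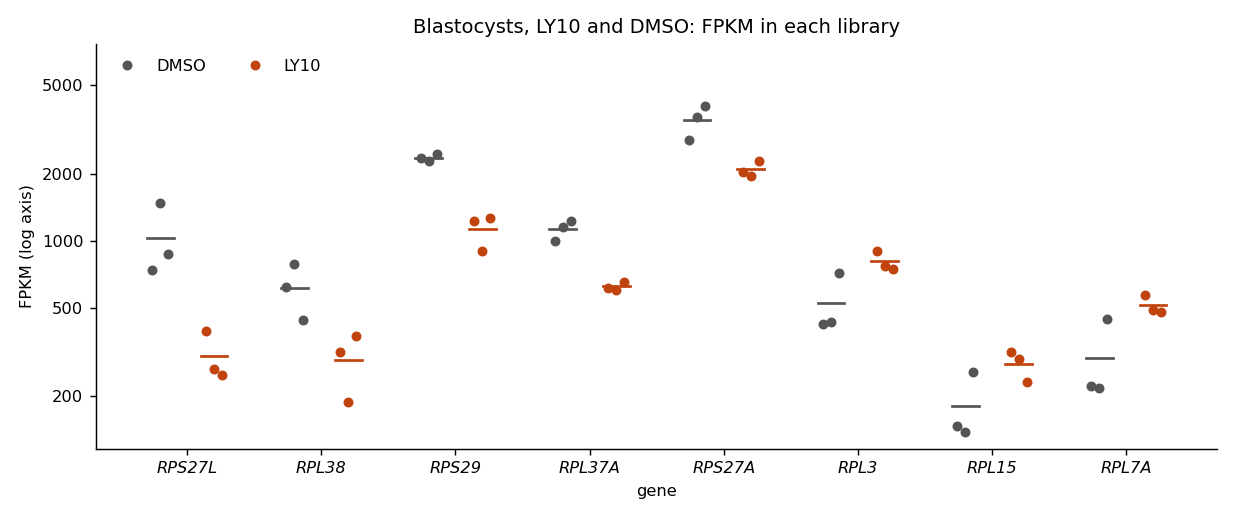
FPKM (log axis) of the ribosomal protein genes with the smallest p in each direction in LY10 against DMSO, 1 point per library and a line at each group's mean. RPS27L, RPL38, RPS29, RPL37A and RPS27A are lower in every LY10 library, and for RPL3, RPL15 and RPL7A the highest DMSO point is DMSO replicate 3.

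Members with a fixed role in the ribosome or in signaling mostly did not pass in LY10 against DMSO. RPLP0, the core protein of the stalk that recruits elongation factors, stood at 870, 437 and 1418 FPKM in DMSO and 1271, 1389 and 1518 in LY10. DMSO spread more than 3-fold and overlapped LY10, with a log2 fold change of 0.77 ± 0.38 (unadjusted p = 0.0760 in limma). The other stalk proteins, RPLP1 and RPLP2, gave -0.07 ± 0.20 and -0.05 ± 0.23. RPS6, the substrate of the S6 kinases, gave -0.13 ± 0.25 and RPSA, also known as the laminin receptor, 0.32 ± 0.24. RPL5 and RPL11, which bind 5S RNA and restrain MDM2 when ribosome assembly fails, gave -0.27 ± 0.22 and -0.06 ± 0.19. RPS4X gave -0.06 ± 0.26, with 1870, 1915 and 1382 FPKM in DMSO and 1206, 2051 and 1778 in LY10.

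The paralogs that the rule took in were set beside their parents. RPL22 was lower in LY10 (log2 fold change -0.65 ± 0.21), at 837, 753 and 769 FPKM in DMSO against 513, 407 and 598. Its paralog RPL22L1 overlapped between the groups, with 180, 100 and 536 FPKM in DMSO and 302, 207 and 280 in LY10. RPL26L1 (206, 324 and 155 against 114, 129 and 143 FPKM) and its parent RPL26 (738, 899 and 1039 against 639, 499 and 635 FPKM) were both lower without overlap. RPL7L1, a nucleolar relative of RPL7, gave 0.09 ± 0.23 and RPL7 0.02 ± 0.30. RPL3L, a striated muscle paralog, and RPL10L, a testis paralog, held at most 0.76 FPKM in any blastocyst.

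The fold changes followed gene length in LY10 against DMSO. Across the 78 tested members the Spearman correlation between the log2 fold change and the counted length was 0.55, a description over genes that share the same 6 libraries. The 30 members under 600 bases had a median log2 fold change of -0.50, with 14 lower and 0 higher at an unadjusted p under 0.05. The 48 members of 600 bases or more had a median of 0.01, with 6 lower and 3 higher. The bound of 600 bases was chosen after the values were seen.

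Genes outside the family showed the same relation. Across the 973 other tested genes with a mean FPKM of at least 100 the Spearman correlation was 0.51. Those under 600 bases (114 genes) had a median of -0.74 and 73 of them were lower at an unadjusted p under 0.05, while the 859 longer ones had a median of -0.07. Of all 973, 27.7% were lower and 14% higher at that p, against 25.6 and 3.85% of the members. Over all 14249 tested genes, most of them longer and less abundant, the correlation was 0.08, but the 466 genes under 600 bases had a median of -0.77, with 173 lower and 3 higher at that p, against -0.03 over the longer ones. The share of lower members was above that of all genes and near that of other abundant genes.

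Within single libraries, reads on members under 600 bases divided by reads on longer members gave 0.561, 0.613 and 0.476 in DMSO and 0.401, 0.357 and 0.408 in LY10. All LY10 libraries were below all DMSO libraries, with DMSO replicate 3 nearest. The same ratio over the other abundant genes was 0.102, 0.114 and 0.0704 in DMSO and 0.0518, 0.0463 and 0.0570 in LY10. In the second table the ratio over members was 0.369 and 0.426 in LY_DMSO. It was 0.391 and 0.391 in cell2_LY and 0.377 and 0.361 in cell16_LY. Over the other abundant genes it was 0.0543 and 0.0576, 0.0631 and 0.0630, and 0.0553 and 0.0533 in the same order. The DMSO libraries of the first table thus lay above every other blastocyst library in both ratios. In LY10 against DMSO, leaving out single libraries gave medians of -0.58 to -0.38 for the short members. Leaving out DMSO replicate 3 gave -0.44 for the short and 0.13 for the long ones. The cause of the relation with length was not tested.

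**Figure D3:**
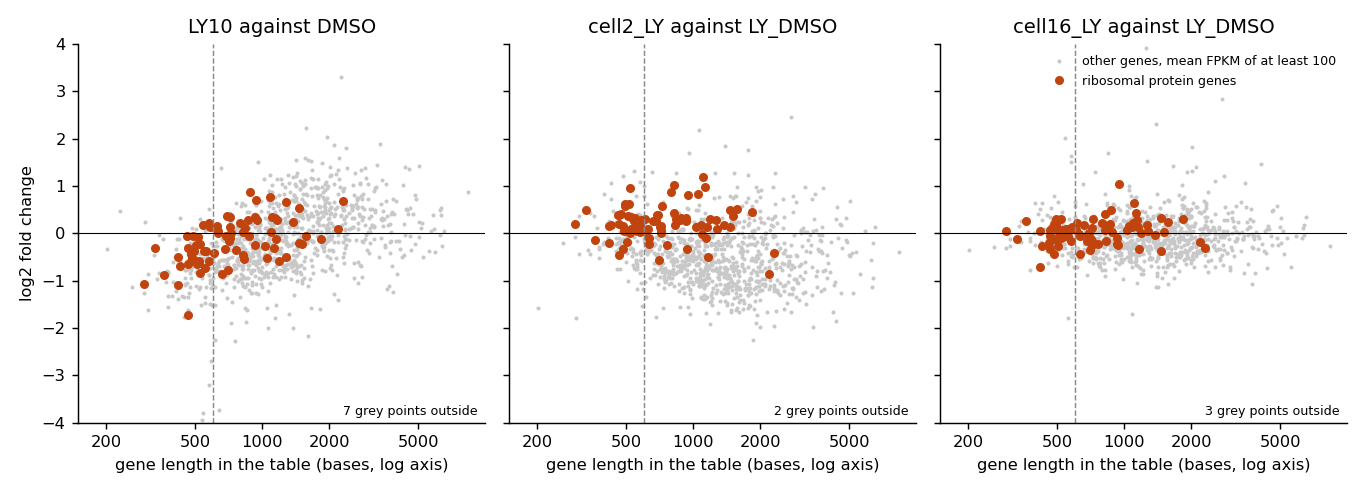
Log2 fold change of each gene against its counted length (bases, log axis) in 3 blastocyst comparisons, for ribosomal protein genes (orange-red) and other genes with a mean FPKM of at least 100 (grey), with a dashed line at 600 bases. In LY10 against DMSO both sets run upward with length (Spearman 0.55 and 0.51), and in cell2_LY against LY_DMSO the ribosomal protein genes (Spearman 0.05, median 0.20) lie mostly above the median of the grey genes (-0.53).

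In the second experiment, cell2_LY blastocysts also received the inhibitor from the 2-cell stage, and ribosomal protein genes were mostly higher. At the threshold of the study 2 members were higher, RPS2 and RPL13A, and 0 were lower, against 8.71 and 8.34% of the 14529 tested genes. At an unadjusted p under 0.05 alone, 7 were higher (8.97% of 78, against 11.1% of all genes) and 1 was lower (against 13.5%). In limma 0 members passed the Benjamini-Hochberg adjustment, with a lowest adjusted p of 0.102, and 0.0138% of all genes passed. With voom weights 8 had an unadjusted p under 0.05 and 0 an adjusted one. The log2 fold change was above 0 for 63 of 78 members (80.8%) and below 0 for 15, against 50.1 and 49.9% of all genes, and its median was 0.20, against 0.00 over all genes. Both cell2_LY libraries lay above both LY_DMSO libraries for 39 members (50%, against 26.9% of all genes) and below for 9 (11.5%, against 26.9%).

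Other abundant genes went the other way. The 908 other tested genes with a mean FPKM of at least 100 had a median log2 fold change of -0.53, and 38.4% of them were lower and 4.07% higher at an unadjusted p under 0.05. Their median was -0.25 without cell2_LY replicate 1, -0.81 without cell2_LY replicate 2, -0.30 with library sizes taken from gene reads and -0.18 with quantile normalization, while that of the members stayed above 0 in these settings. With gene reads 13 of the 100 under 600 bases and 52 of the 808 longer ones were higher at that p, and 6 and 247 lower. With quantile normalization 17 and 77 were higher and 6 and 195 lower. The shares over all genes with gene reads or quantile normalization are not given here. Members under and above 600 bases had medians of 0.19 and 0.27, and the Spearman correlation with length was 0.05. The library size behind the FPKM of cell2_LY replicate 1 was 1.23 times its reads on genes, against 0.949 to 1.04 in the other libraries of the table. With library sizes taken from gene reads the median over members was 0.43 and that over all genes 0.24, and 6 members passed the threshold of the study, with 21 higher and 1 lower at an unadjusted p under 0.05. With quantile normalization the median was 0.57 and 7 members passed, with 38 higher and 0 lower. Without LY_DMSO replicate 2 the median was 0.11 and 1 member was higher at that p.

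RPS2, a 40S protein at the mRNA entry channel (chr25:1519527-1521706), had the widest change in cell2_LY. It stood at 878 and 409 FPKM in LY_DMSO and 1619 and 1154 in cell2_LY. LY_DMSO replicate 2 was far below replicate 1 and the groups did not overlap, with a log2 fold change of 1.19 ± 0.39 (adjusted p = 0.123 in limma). RPL13A (chr18:55940635-55944163), a 60S protein also found in a complex that represses inflammatory mRNAs, stood at 756 and 394 FPKM in LY_DMSO and 1163 and 1041 in cell2_LY, with a log2 fold change of 1.01 ± 0.37 (adjusted p = 0.153 in limma). Without LY_DMSO replicate 2 the changes of RPS2 and RPL13A were 0.64 and 0.54 and neither passed. Without cell2_LY replicate 1 they were 0.95 and 0.93, and neither passed. Without LY_DMSO replicate 1 they were 1.74 and 1.48.

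The smallest p among the higher members was that of RPL9, a 60S protein near the stalk base. RPL9 stood at 414 and 299 FPKM in LY_DMSO and 752 and 634 in cell2_LY (log2 fold change 0.97 ± 0.28, adjusted p = 0.102 in limma). RPS12 stood at 571 and 515 FPKM in LY_DMSO and 1308 and 841 in cell2_LY (0.95 ± 0.29). Cell2_LY replicate 1 was the highest library for RPS12, and neither gene overlapped between the groups. RPS9, another protein of the mRNA entry channel, stood at 94.5 and 67.4 FPKM in LY_DMSO and 151 and 143 in cell2_LY (0.88 ± 0.27). RPS24, a gene mutated in Diamond-Blackfan anaemia, stood at 390 and 284 FPKM against 634 and 546 (0.82 ± 0.27). RPL23, which can bind MDM2, was the remaining one, at 1083 and 858 FPKM against 1567 and 1395 (0.62 ± 0.27). All of these were higher in both treated libraries than in both controls.

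The member lower at an unadjusted p under 0.05 was the paralog RPL7L1, an assembly factor rather than a protein of the mature ribosome. It stood at 233 and 257 FPKM in LY_DMSO and 115 and 157 in cell2_LY (log2 fold change -0.86 ± 0.27), and its parent RPL7 gave -0.02 ± 0.33. The paralogs RPL22L1 and RPL26L1 were also below both controls in both libraries, at -0.49 ± 0.26 and -0.57 ± 0.29, without passing. RPS27L stood at 457 and 518 FPKM in LY_DMSO and 201 and 634 in cell2_LY. The cell2_LY libraries lay on either side of the controls for RPS27L, and its log2 fold change was -0.45 ± 0.47. It was 0.38 without cell2_LY replicate 1 and -1.27 without replicate 2. Without replicate 2 RPS27L (adjusted p = 0.0469 in limma) and RPS12 (log2 fold change 1.27, adjusted p = 0.0403) passed the adjustment.

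The stalk proteins were higher in both cell2_LY libraries for RPLP1 (0.62 ± 0.29) and RPLP2 (0.40 ± 0.27) and overlapped for RPLP0 (0.17 ± 0.29), and none passed. RPL11 gave 0.51 ± 0.26 and RPL5 0.15 ± 0.28. RPS6 gave 0.12 ± 0.32, RPSA -0.10 ± 0.30, RPS27A 0.17 ± 0.27 and RPS4X 0.28 ± 0.31.

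**Figure D4:**
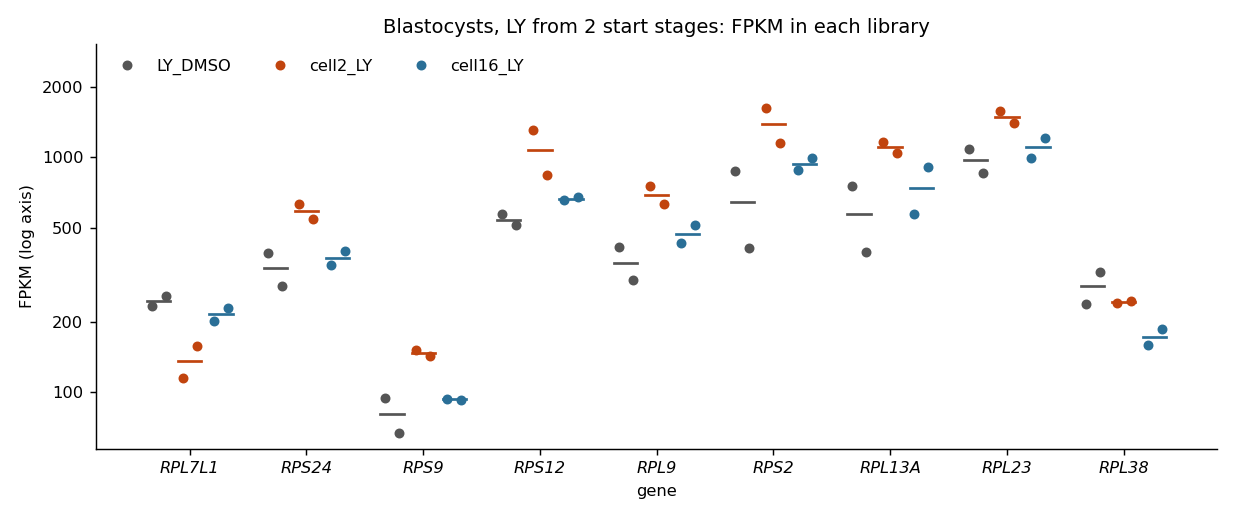
FPKM (log axis) of the ribosomal protein genes named for the second blastocyst table, 1 point per library and a line at each group's mean. RPS24, RPS9, RPS12, RPL9, RPS2, RPL13A and RPL23 are higher in both cell2_LY libraries than in both LY_DMSO libraries, RPL7L1 is lower, and RPL38 is lowest in cell16_LY.

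The 2 experiments with the inhibitor from the 2-cell stage were set side by side. Of the 78 tested members 42 had a negative log2 fold change in LY10 against DMSO and a positive one in cell2_LY against LY_DMSO, 8 the reverse, 21 were positive and 7 negative in both. The first pattern held for 25.2% of the 13019 genes tested in both tables. For 13 members the libraries of the groups did not overlap in either experiment and lay in opposite directions. All 13 were lower in LY10 and higher in cell2_LY, among them RPL22, RPL23, RPL27A, RPL31, RPL34, RPL37A, RPS12, RPS19, RPS24, RPS26, RPS27 and RPS27A. Over all genes tested in both tables the share with this pattern was 3.39% and with its reverse 6.39%. Taken singly, 30.8% of the members were lower without overlap in LY10 and 50% higher without overlap in cell2_LY. Across the 78 members the Spearman correlation between the 2 log2 fold changes was 0.01. The count of 13 therefore does not show that particular members reversed between the experiments. For 4 members, RPL26L1, RPL27, RPS14 and RPL7A, the groups did not overlap in either experiment and lay in the same direction, against 6.03% of all genes. An unadjusted p under 0.05 in both experiments was found for 3 members, all lower in LY10 and higher in cell2_LY, against 1.02% of all genes. These were RPL23 (-0.56 ± 0.20 and 0.62 ± 0.27), RPS12 (-0.62 ± 0.19 and 0.95 ± 0.29) and RPS24 (-0.52 ± 0.22 and 0.82 ± 0.27). The tables were normalized separately and the labels give a dose only for LY10, so the difference between experiments was not tested.

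When the inhibitor was added at the 16-cell stage, few ribosomal protein genes differed from LY_DMSO. In cell16_LY against LY_DMSO 0 members passed the threshold of the study in either direction, against 3.25 and 1.97% of all tested genes. At an unadjusted p under 0.05, 0 were higher, against 4.37%, and 1 was lower, against 3.25%. In limma 0 members and 0 of all genes passed the Benjamini-Hochberg adjustment, and with voom weights 1 member had an unadjusted p under 0.05. The median over members was 0.04, against -0.01 over all genes. By sign 44 were higher and 34 lower, against 49.5 and 50.5% of all genes, and the groups did not overlap for 9 higher and 19 lower members, against 20.9 and 22%. The member that was lower was RPL38, at 238 and 326 FPKM in LY_DMSO and 158 and 186 in cell16_LY. Both cell16_LY libraries were below both controls, with a log2 fold change of -0.70 ± 0.27 (adjusted p = 0.620 in limma). Without LY_DMSO replicate 2 it was -0.48, and without cell16_LY replicate 1 or 2 it was -0.59 and -0.82, with an unadjusted p above 0.05 each time.

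The widest changes among the members that did not pass were those of RPL12 and RPS2. RPL12, a protein of the stalk base, stood at 916 and 284 FPKM in LY_DMSO and 844 and 1293 in cell16_LY, with a log2 fold change of 1.03 ± 0.50. The control libraries of RPL12 differed more than 3-fold and overlapped the treated ones. RPS2 stood at 882 and 995 FPKM in cell16_LY, just above the 878 of LY_DMSO replicate 1, and gave 0.64 ± 0.39. Without LY_DMSO replicate 1, 2 members were higher at the threshold of the study, and without LY_DMSO replicate 2 the median over members was -0.10. The stalk genes RPLP0, RPLP1 and RPLP2 gave 0.14 ± 0.29, -0.02 ± 0.29 and -0.20 ± 0.27, and RPS6, RPSA, RPL5, RPL11 and RPS27A lay between 0.07 and 0.27 with errors of 0.26 to 0.32.

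The start stages were compared directly in cell16_LY against cell2_LY. No member (0 of 78) passed the threshold of the study, against 5.58% of all tested genes higher and 5.77% lower. At an unadjusted p under 0.05, 1 member was higher (RPL7L1), against 10.1%, and 3 were lower (RPS9, RPS24 and RPS12), against 7.73%. In limma 0 members and 0 of all genes passed the adjustment, and with voom weights 3 members had an unadjusted p under 0.05. The median over members was -0.19, against 0.04 over all genes and 0.45 over the 908 other abundant genes. The latter was 0.17 without cell2_LY replicate 1, 0.72 without cell2_LY replicate 2, 0.24 with library sizes taken from gene reads and 0.18 with quantile normalization. Without either one of the cell16_LY libraries 0 members had an unadjusted p under 0.05. Both cell16_LY libraries lay below both cell2_LY libraries for 41 members (52.6%, against 26.3% of all genes) and above for 3 (against 28.2%). By sign 17 members were higher and 61 lower, against 52 and 48% of all genes. With quantile normalization 0 members were higher and 28 lower at an unadjusted p under 0.05, and with library sizes taken from gene reads 0 and 19. The shares over all genes in these settings are not given here.

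By gene, RPS12 stood at 657 and 677 FPKM in cell16_LY against 1308 and 841 in cell2_LY (log2 fold change -0.65 ± 0.29). RPS9 stood at 93.9 and 93.0 FPKM against 151 and 143 (-0.65 ± 0.27), and RPS24 at 349 and 398 against 634 and 546 (-0.66 ± 0.27). RPL7L1 stood at 201 and 229 FPKM against 115 and 157 (0.67 ± 0.27). In these 4 genes the cell16_LY libraries lay nearer to LY_DMSO than to cell2_LY. The comparisons of cell2_LY and cell16_LY share the LY_DMSO libraries, and this one shares both treated groups with them.

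In the bESCs the log2 fold changes of nearly all ribosomal protein genes lay close to 0. In bESC_LY against bESC_tifx 0 members passed the threshold of the study in either direction, against 0.0375% of all 16012 tested genes in each direction. At an unadjusted p under 0.05, 0 members passed, against 0.05% in each direction. Only 16 of all 16012 genes reached that p in this fit, so the 0 does not show an absence of change. In limma without a replicate block 0 members and 0 of all genes passed the Benjamini-Hochberg adjustment, and 0 members had an unadjusted p under 0.05 with voom weights. The median log2 fold change was -0.01, and -0.01 over all genes, and 77 of 80 lay within 0.15 of 0. The standard errors had a median of 0.15. By sign 34 were higher and 46 lower, against 47.8 and 52.2% of all genes, and the groups did not overlap for 2 higher and 7 lower members, against 6.83 and 7.36%.

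The members beyond that range were RPL3L, RPL17 and RPL12. RPL3L stood at 0.333 and 0.310 FPKM in bESC_tifx and 0.137 and 0.247 in bESC_LY, close to the filter. RPL17, a protein lining the exit tunnel, stood at 1218 and 1079 FPKM in bESC_tifx and 838 and 970 in bESC_LY, with a log2 fold change of -0.35 ± 0.15 (unadjusted p = 0.0761 in limma). RPL12 stood at 210 and 277 FPKM in bESC_tifx and 291 and 280 in bESC_LY (0.24 ± 0.18), with 76.8% of its reads and those of its copies on the copies. RPL17 was below both controls and RPL12 above both in both treated libraries. With the replicate number as a block both passed the adjustment in limma, as given at the end, but no label ties the numbers to pairs. RPLP0, RPLP1 and RPLP2 gave -0.02 ± 0.14, 0.03 ± 0.14 and 0.05 ± 0.12. RPS6 gave 0.03 ± 0.14 and RPS27L 0.05 ± 0.34, at 90.8 and 61.2 FPKM in bESC_tifx and 99.4 and 59.9 in bESC_LY.

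**Figure D5:**
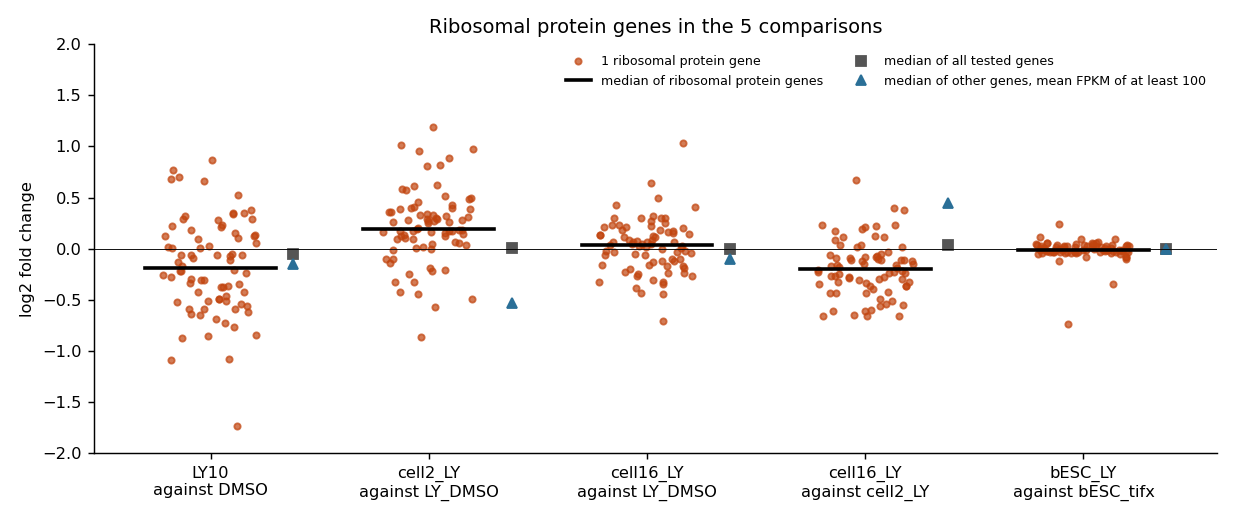
Log2 fold change of every tested ribosomal protein gene (points) in the 5 comparisons, with their median (line), the median of all tested genes (square) and the median of other genes with a mean FPKM of at least 100 (triangle). The members spread from -1.73 to 0.87 in LY10 against DMSO and lie mostly above the triangle (-0.53) in cell2_LY against LY_DMSO, and in the bESCs 77 of 80 lie within 0.15 of 0.

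Genes of the same class outside the name rule, other ribosomal proteins and translation factors with TOP mRNAs, were counted from a list of 24. In LY10 against DMSO 6 were higher and 2 lower at an unadjusted p under 0.05, against 10.8 and 12.2% of all genes, with a median of 0.14. FAU, which encodes a small subunit protein fused to a ubiquitin-like domain, was lower at 940, 630 and 878 FPKM in LY10 against 1182, 1361 and 1258 in DMSO (log2 fold change -0.65 ± 0.22). EIF3L, a subunit of initiation factor eIF3, was higher at 243, 228 and 257 FPKM against 92.1, 99.9 and 165 (1.08 ± 0.26). In cell2_LY against LY_DMSO 3 of the 24 were higher and 8 lower, against 11.1 and 13.5% of all genes, with a median of -0.35. Of the 908 other genes with a mean FPKM of at least 100, 4.07% were higher and 38.4% lower there, with a median of -0.53. In cell16_LY 0 of the 24 were higher and 2 lower than in LY_DMSO, where 4.37 and 3.25% of all genes were. Compared with cell2_LY 5 were higher and 2 lower. There 10.1 and 7.73% of all genes and 24.1 and 1.65% of the 908 were. In cell2_LY against LY_DMSO EIF3L was lower, at 64.4 and 116 FPKM against 265 and 308 (-1.72 ± 0.32), and TPT1, encoding the translationally controlled tumour protein, was higher at 1943 and 1515 against 800 and 634 (1.27 ± 0.29). Both genes lay apart from the controls in every library of these comparisons.

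Ribosome assembly factors had medians of the opposite sign to the ribosomal proteins in both experiments that began at the 2-cell stage. In LY10 against DMSO the ribosomal protein median was -0.50 over the 30 members under 600 bases and 0.01 over the 48 longer ones. Of 57 assembly factors tested, 23 were higher, against 10.8% of all genes, and 2 lower at an unadjusted p under 0.05 in LY10 against DMSO, with a median log2 fold change of 0.52. DKC1, the pseudouridine synthase of H/ACA particles, stood at 69.6, 109 and 111 FPKM in LY10 against 41.8, 43.5 and 42.5 in DMSO (1.15 ± 0.24). NOP16 was lower (-0.95 ± 0.22), at 183, 159 and 230 against 365, 389 and 336. In cell2_LY against LY_DMSO 0 were higher and 37 lower, against 13.5% of all genes and 38.4% of the 908 other genes averaging at least 100 FPKM. The median of the factors was -0.94, against -0.53 over those 908. UTP4, a factor of the small subunit processome, stood at 15.8 and 28 FPKM against 64.9 and 81.8 (-1.79 ± 0.32). In cell16_LY against LY_DMSO 0 were higher and 4 lower (median -0.35), where 4.37 and 3.25% of all genes were. Against cell2_LY 23 were higher and 0 lower (median 0.55), where 10.1 and 7.73% of all genes were. Of the 908 abundant genes 24.1 and 1.65% were, with a median of 0.45. With adjustment over all genes 0 assembly factors passed in limma in any comparison.

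RNA polymerase I, which transcribes ribosomal RNA, was followed through 15 of its subunits and factors. In LY10 against DMSO 3 were higher and 0 lower at an unadjusted p under 0.05, against 10.8 and 12.2% of all genes, with POLR1G at 8.82, 9.75 and 9.77 FPKM against 4.33, 2.60 and 6.36 (1.17 ± 0.37). In cell2_LY against LY_DMSO 0 were higher and 6 lower, against 11.1 and 13.5% of all genes, led by POLR1F at 32.8 and 45.4 FPKM against 87.3 and 84.3 (-1.15 ± 0.27). In cell16_LY against LY_DMSO 0 passed in either direction, where 4.37 and 3.25% of all genes did. Against cell2_LY 2 were higher and 0 lower, where 10.1 and 7.73% of all genes were.

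Of 17 genes of the mTORC1 pathway and other regulators of TOP mRNAs, 5 were higher and 1 lower in LY10 against DMSO at an unadjusted p under 0.05, against 10.8 and 12.2% of all genes. MLST8, a subunit of both mTOR complexes, stood at 18.7, 14.8 and 13.6 FPKM in LY10 against 4.75, 3.22 and 5.32 in DMSO (1.83 ± 0.33), and RHEB, the GTPase that activates mTORC1, at 238, 199 and 282 against 335, 407 and 420 (-0.70 ± 0.22). In cell2_LY against LY_DMSO 2 were higher and 4 lower, against 11.1 and 13.5%. MYC, a transcription factor that activates ribosome synthesis, was at 6.59 and 8.67 FPKM against 3.69 and 1.45 (1.70 ± 0.56), and MLST8 at 6.41 and 5.83 against 11.8 and 16.4 (-1.18 ± 0.35). In cell16_LY against LY_DMSO 0 were higher and 1 lower, where 4.37 and 3.25% of all genes were. Against cell2_LY 1 was higher and 4 were lower, where 10.1 and 7.73% of all genes were. In the bESCs 0 genes of any of these 4 lists had an unadjusted p under 0.05, where 0.05% of all genes did in each direction.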

How the data were processed

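The authors sequenced single blastocysts (SMART-seq) and bESCs, trimmed the reads with fastp and aligned them with HISAT2 2.0.5 (their methods also name STAR). Genes were counted with featureCounts 1.5.0-p3, and StringTie 1.3.3b and DESeq2 1.20.0 stand in the submitters' processing notes. The deposited values are FPKM per gene and library, beside the authors' DESeq2 fold changes and p-values, which were not used. The start and end of all 82 members in the blastocyst tables are those of RefSeq ARS-UCD2.0, and the bESC build was not given in the sources used here.

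FPKM multiplied by gene length gave whole reads for 100% of values within 0.02 reads, and hence the library size. Normalized counts are these reads brought to the table's geometric mean library size. Genes averaging 10 or more were fitted in limma 3.58.1 (R 4.3.3) on log2(normalized count + 1), with a trend and Benjamini-Hochberg adjustment over all tested genes. All 3 groups in the second table entered a single fit. Counting limits (3 reads) describe counting error alone, as no molecular identifiers were used. All libraries are labelled batch 1. Libraries of a group differed beyond sampling noise (chi-square per gene 33.6 to 114). Code was tested on simulated data.

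Members and lists were chosen with earlier results of these data known. Named members were those with up to 5 smallest p per direction, the widest changes where fewer than 3 passed, the highest and lowest by FPKM, a fixed set (stalk proteins, RPS6, RPSA, RPS27A, RPL5, RPL11, RPS4X, paralogs) and the smallest p of each other list. RPL13A, RPL23, RPL8, RPL39 and 12 members of opposite direction were named after their values were seen, and 1 further member is not reported here. Tables and figures used Python 3.11.15, numpy 2.4.6, pandas 2.3.3 and matplotlib 3.10.9. Alternatives were a pseudocount of 0.5 or 5, the absence of a filter, a filter at 50, median-ratio size factors, quantile normalization, library sizes without ribosomal protein reads or from reads on genes, voom, log2(FPKM + 1) over genes averaging 0.5 FPKM or more, array weights, a replicate block, single libraries left out, and 2-group fits. Comparisons with other genes of at least 100 FPKM and the length bound were added after seeing the data.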

Additional observations from a re-analysis of the deposited data

Results flagged for a closer look

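In 13 members the groups did not overlap in either experiment with the inhibitor from the 2-cell stage, and the directions were opposite, and 12 of them are given by name. Over all 13019 genes tested in both tables the share with this pattern was 3.39% and with its reverse 6.39%, and for 4 members the directions were the same (6.03% of all genes). This difference was not tested, since the tables were normalized separately. Taken singly, 30.8% of the members were lower without overlap in LY10 and 50% higher without overlap in cell2_LY. The Spearman correlation between the 2 log2 fold changes across the 78 members was 0.01. The log2 fold changes in LY10 against DMSO and in cell2_LY against LY_DMSO were -0.65 and 0.40 for RPL22, -0.56 and 0.62 for RPL23, -0.64 and 0.36 for RPL27A, -0.42 and 0.30 for RPL31 and -0.54 and 0.18 for RPL34. They were -0.85 and 0.26 for RPL37A, -0.62 and 0.95 for RPS12 and -0.47 and 0.43 for RPS19. For RPS24 they were -0.52 and 0.82, for RPS26 -0.49 and 0.29, for RPS27 -0.59 and 0.29 and for RPS27A -0.72 and 0.17.

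At an unadjusted p under 0.05 in limma, cell16_LY and cell2_LY differed for RPL7L1 (0.67 in cell16_LY against cell2_LY), RPS9 (-0.65), RPS24 (-0.66) and RPS12 (-0.65). None of these 4 differences passed adjustment over all genes, where the adjusted p ranged from 0.253 to 0.279. Of the members 1.28% were higher and 3.85% lower at that p, less than the 10.1 and 7.73% of all genes. With the replicate number as a block 0 members kept it, as given below. Without either one of the cell16_LY libraries 0 members passed it.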

How the results depend on the processing

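In LY10 against DMSO, leaving out single libraries gave 0 to 3 higher and 1 to 5 lower members at the threshold of the study, with medians from -0.30 to -0.04. Array weights gave 1 higher member (RPL7A) and 6 members past the adjustment. In cell2_LY against LY_DMSO the same gave 0 to 7 higher and 0 to 2 lower members and medians from 0.11 to 0.33, while quantile normalization gave 7 higher and a median of 0.57 and library sizes taken from gene reads gave 6 and 0.43. In cell16_LY against LY_DMSO leaving out libraries gave 0 to 2 higher members and medians from -0.10 to 0.15, and array weights gave 1 higher. In cell16_LY against cell2_LY the median was -0.27 to -0.12 without single libraries, -0.48 with quantile normalization and -0.41 with gene reads. RPS27L, at 0.12, turned to -0.71 without cell2_LY replicate 1 and was 0.95 without replicate 2. In the bESCs the median was -0.12 to 0.11 without single libraries. The cause of these shifts was not tested. The other alternatives moved neither these counts by over 1.5 times nor these medians beyond the spread between replicates. Over all alternatives, values of named members fell short of an unadjusted p of 0.05 that they had passed 24 times in LY10 against DMSO, 7 in cell2_LY against LY_DMSO, 3 in cell16_LY against LY_DMSO and 26 in cell16_LY against cell2_LY, and newly passed it 5, 14, 6 and 13 times, and 2 times in the bESCs.

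With the replicate number as a block, the counts at the threshold of the study stayed at 0 and 3 in LY10 against DMSO, 2 and 0 in cell2_LY against LY_DMSO and 0 elsewhere, and 3 members were higher and 16 lower at an unadjusted p under 0.05 in LY10 against DMSO. In cell16_LY against cell2_LY 0 members kept an unadjusted p under 0.05 with the block. In the bESCs the block gave RPL12 (0.24, adjusted p = 0.0124) and RPL17 (-0.35, adjusted p = 2.03379e-09) in limma. The deviations of same-numbered libraries from their group means correlated at 0.79 in the bESCs. They correlated at -0.12, 0.17 and -0.10 in the first table and at 0.12, -0.13 and -0.23 in the second. Differently numbered libraries gave -0.23 to 0.27 in the first table. With 2 libraries per group, as in the bESCs and the second table, they give the same values with the opposite sign. The labels put all libraries in batch 1 and tie no number to a batch of its own, so the numbers were not taken as pairs.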
